A study of Homo sapiens with 14 samples.

Results

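Ribosome-bound RNA of late pancreatic progenitors (PP2) was compared with that of definitive endoderm (DE), the last and the first stage sampled in a course of pancreatic differentiation. Every gene with enough counts entered, which left 15067 of 59050 gene symbols. The comparison rested on 5 of 14 libraries: 2 DE and 3 PP2 libraries of ribosome profiling (Ribo). The 2 Ribo libraries of early pancreatic progenitors (PP1) shared the fit, where they added to the estimate of the spread and gave the level in between. All cells were wild-type HUES8, an established human embryonic stem cell line differentiated in culture, and the labels name the stage as the one difference between groups. Days, culture factors and the way footprints were isolated are not stated there. RNA sequencing libraries (RNA) of the same stages are given beside the Ribo values. The sources do not say whether replicates were separate differentiations, so the p-values measure the spread between these libraries, which may be technical.

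Ribosome profiling sequences the RNA that sits in ribosomes, so that a gene's reads follow both the amount of its mRNA and how densely ribosomes load it. Definitive endoderm is the germ layer that forms liver, pancreas, lung and gut, and it arises through a primitive streak-like state under Nodal and WNT signals. Pancreatic progenitors then come from a foregut stage that also gives rise to liver and bile duct. PDX1 marks the pancreatic field, and PDX1 together with NKX6-1 marks progenitors able to form endocrine cells. The stages compared here stand at both ends of that path.

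The DE libraries held 6108416 and 6090430 counts, and PP2 replicates 1, 2 and 3 held 24186949, 7197910 and 10263760. Protein-coding genes took 34.7% and 35.2% of the counts in DE, and 94.9%, 43.9% and 79.7% in PP2. The mitochondrial rRNA MT-RNR2 took 49.97% and 49.2% of them in DE and 1.65%, 44.6% and 11.004% in PP2, so that PP2 replicate 2 resembled the DE libraries in this respect. Levels are CPM, the counts of a gene over the library total scaled by the trimmed mean of M-values. Differences are log2 fold changes of PP2 over DE with their standard error (log2 ± SE), and adjusted p-values come from edgeR's quasi-likelihood test with Benjamini-Hochberg adjustment over all 15067 genes. Library values are always given in replicate order.

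Over all genes, 1974 were higher in PP2 (13.1% of those tested) and 2179 were lower (14.5%). Of 13032 protein-coding genes tested, 1914 rose (14.7%) and 1592 fell (12.2%), and the median log2 difference over all of them was 0.17. The DE and PP2 libraries did not overlap for 56.9% of all genes and 56.4% of protein-coding genes. Among called protein-coding genes they did not overlap for 1912 of the 1914 that rose and for all 1592 that fell. Absence of overlap in a called gene therefore adds little to its call. The measured falls of protein-coding genes were larger than the rises. The median size of the fall was 2.71 on the log2 scale and that of the rise 1.90. By 8-fold or more, 702 fell and 451 rose. In these figures the 107 genes with 0 counts in DE and the 27 with 0 counts in PP2 stand at the bound that 3 counts over the stage allow. Protein-coding counts were 2119722 and 2144592 in DE and 22955347, 3157767 and 8178973 in PP2. A rise from 0 counts can thus be measured over a narrower range than a fall to 0. The genes that fell also include 159 with an RNA mean under 1 CPM in both stages, described below. The typical member of the group that rose went from a median of 9.90 CPM in DE through 23.6 CPM in PP1 to 37.1 CPM in PP2. The typical member of the group that fell went from 18.7 CPM through 6.74 CPM to 2.80 CPM. PP1 lay between the other stages for 1426 of the 1914 genes that rose and 1286 of the 1592 that fell, and it lay beyond PP2 for 355 and 224 of them. The number of calls moved with single libraries: leaving out DE replicate 1 or 2 left 1810 or 1788 calls over all genes of the 4153 in the full set (27.6% of those tested), leaving out PP2 replicate 3 left 2133, and leaving out PP2 replicate 2 gave 6837.

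The RNA of the same genes moved in the same direction in most cases. Of the 1914 protein-coding genes whose footprints rose, 1910 had an RNA value, and the RNA difference was positive for 1641 of these (85.9%), with a median log2 of 0.91. Of the 1592 that fell, 1459 had an RNA value, and it was negative for 1316 (90.2%), with a median of -1.77. Over all 12814 tested protein-coding genes with an RNA value, 49.6% were positive and the median was -0.01.

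**Figure D1:**
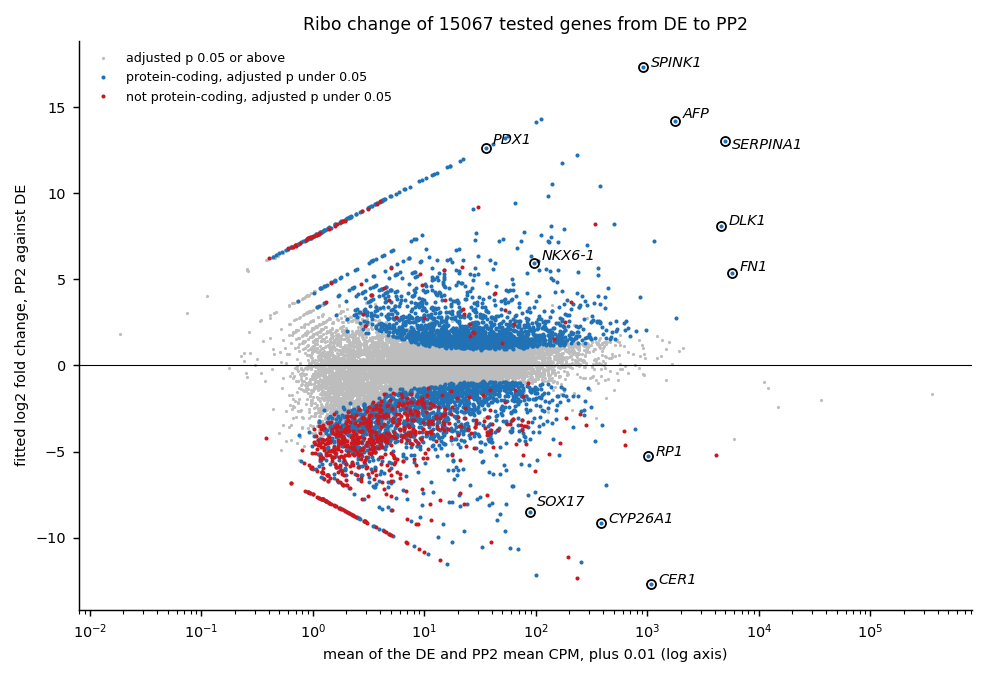
Each point is 1 of the 15067 tested genes, with the mean of its DE and PP2 levels (CPM + 0.01, log axis) across and its fitted log2 fold change of PP2 against DE upward; blue points are protein-coding genes with an adjusted p under 0.05, red points the other genes that passed, and grey points those that did not. CER1 lies lowest, and the straight slanting edges are genes with 0 counts in one stage, such as PDX1 and SPINK1, whose fitted value depends on the prior count. The text gives bounds for such genes in the main fit, while medians include their fitted values unless bounds are named.

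Several of the genes that passed came up from nothing. HABP2, a plasma protease, was at 152, 54.1 and 129 CPM in PP2 (at least 499-fold higher, or 247-fold with a library left out) and PDE3A, a cyclic nucleotide phosphodiesterase, at 126, 78.1 and 109.9 CPM (at least 433-fold higher, or 214-fold with a library left out), both from 0 counts. TM4SF4, a tetraspan membrane protein, and RNF128, a ubiquitin ligase, were at least 376-fold higher and at least 186-fold higher (186-fold and 91.8-fold with a library left out), also from 0 counts. The bound set after each is the lowest with any one DE or PP2 library left out, where the 3 counts stand over a smaller total. None of these 4 genes had a count in either DE library. On the other side, SHISAL2B, VENTX (a homeobox factor), BPIFA1 and the cation channel TRPA1 went to 0 counts in all PP2 libraries, from 31.2 and 33.1 CPM, 21.3 and 21.9 CPM, 20.4 and 11.6 CPM and 14.4 and 6.701 CPM in DE, which makes them at least 653-fold lower, at least 438-fold lower, at least 326-fold lower and at least 215-fold lower. With a library left out these bounds were 231-fold, 155-fold, 115-fold and 76.0-fold, and TRPA1 did not pass in DESeq2's Wald test (adjusted p = 0.0666). The peptide receptor VIPR2 went from 21.6 and 48.4 CPM to 0, 0 and 0.0722 CPM (a count ratio of 2123 between the stages, with a 95% counting interval of 379 to 84077). OVCH2, an ovochymase-type protease, went from 30.1 and 22.8 CPM to 0.0254, 0 and 0 CPM (a count ratio of 1616 between the stages, with a 95% counting interval of 288 to 64027). SHISAL2B, VENTX and TRPA1 were also at 0 counts in both PP1 libraries, whereas BPIFA1 stood at 32.3 and 0.581 CPM there.

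Among the genes with the largest differences in CPM, APP, the amyloid precursor protein, was at 426 and 502 CPM in DE and 3564, 1539 and 4268 CPM in PP2 (log2 2.75 ± 0.68, adjusted p = 0.01397); the call was lost without DE replicate 1 (adjusted p = 0.129 by edgeR's quasi-likelihood test) or DE replicate 2 (0.107). GPC3, an oncofetal glypican, was at 12.8 and 17.9 CPM in DE and 3045, 1029.7 and 2819 CPM in PP2 (log2 7.23 ± 0.84, adjusted p = 2.4e-04). VCAN, the proteoglycan versican, was at 133 and 74.6 CPM in DE and 1907, 816 and 2148 CPM in PP2 (log2 3.97 ± 0.70, adjusted p = 0.00288; adjusted p = 0.0583 without DE replicate 2). In these genes PP2 replicate 2 was the lowest PP2 library and still above both DE libraries. PSAP, the lysosomal prosaposin, was at 341 and 407 CPM in DE and 1993, 818 and 1945 CPM in PP2 (log2 2.08 ± 0.59, adjusted p = 0.0257); the call was lost without either DE library, either PP1 library or PP2 replicate 3 (adjusted p between 0.0545 and 0.176 by edgeR's quasi-likelihood test). PODXL, a sialomucin of stem cells, was at 689 and 743 CPM in DE and 75.4, 35.1 and 83.6 CPM in PP2 (log2 -3.47 ± 0.46, adjusted p = 5.1e-04). SLC2A3, the glucose transporter GLUT3, was at 632 and 665 CPM in DE and 31.3, 12.04 and 47.7 CPM in PP2 (log2 -4.41 ± 0.55, adjusted p = 3.7e-04). AHNAK, a very large scaffold protein, was at 548 and 499.9 CPM in DE and 78.6, 62.01 and 156 CPM in PP2 (log2 -2.40 ± 0.47, adjusted p = 0.00483). In PODXL, SLC2A3 and AHNAK every PP2 library was below both DE libraries. Absence of overlap was required of all genes chosen by their difference in CPM, so it is no separate result.

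Many of the steepest losses were genes of the primitive streak and mesendoderm. All 12 tested members of this list of 15 fell, with a median log2 difference of -8.10 (-7.87 with genes of 3 counts or fewer at their ratio or bound); 10 to 12 of them still fell when any one library was left out. CER1 (chr9:14717326-14722733), a secreted Nodal and BMP antagonist of the anterior endoderm, stood at 1646 and 2693 CPM in DE and 0.3303, 0.129 and 0.433 CPM in PP2. Every PP2 library was far below both DE libraries, and CER1 also had the largest loss in CPM of the protein-coding genes that passed (log2 -12.68 ± 0.76, adjusted p = 7.4e-06). GSC, a homeobox factor of the organizer region, stood at 183 and 218 CPM in DE and 0.0254, 0 and 0.0722 CPM in PP2, which is a count ratio of 6091 between the stages, with a 95% counting interval of 1684 to 50329.8. EOMES, the T-box factor that specifies endoderm, went from 138 and 136 CPM in DE to 0, 0.259 and 0.144 CPM in PP2 (log2 -10.64 ± 0.77, adjusted p = 1.5e-05). MIXL1, a homeobox factor of the streak, went from 59.04 and 58.5 CPM to 0.279, 0.259 and 0.217 CPM (log2 -7.77 ± 0.60, adjusted p = 1.9e-05). LHX1, a LIM homeobox factor, went from 79.2 and 81.9 CPM to 0.3303, 0.518 and 0.144 CPM (log2 -7.96 ± 0.55, adjusted p = 1.3e-05). None of these DE values came near a PP2 value. TBXT, the notochord and streak factor brachyury, was already low in DE, at 1.42 and 2.72 CPM, and did not pass the low-count filter, nor did MESP1 and TBX6.

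Most of these footprints were gone by PP1. The whole list took 0.645% and 0.907% of protein-coding counts in the DE libraries, 0.013% in each PP1 library and between 0.0059% and 0.0101% in PP2, most of that last share being GATA6. CER1 stood at 1.61 and 0.581 CPM in PP1 and EOMES at 0.538 and 2.03 CPM. GATA6, an endoderm GATA factor that the list also holds, fell least: it was at 82.8 and 74.1 CPM in DE and 51.8, 29.6 and 28.1 CPM in PP2, and its call was lost without either DE library, either PP1 library or PP2 replicate 3 (adjusted p between 0.103 and 0.202 by edgeR's quasi-likelihood test).

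In the Nodal and activin pathway, the ligands NODAL and GDF3, the co-receptor, the extracellular antagonists and the nuclear partner fell. Of 17 tested members, 10 fell and 1 rose, with a median of -2.98; GDF3 was lost without PP1 replicate 1 or 2 (adjusted p = 0.0569 and 0.0562 by edgeR's quasi-likelihood test). The ligand NODAL went from 4.79 and 10.9 CPM in DE to 0.0254, 0 and 0 CPM in PP2, which is a count ratio of 475 between the stages, with a 95% counting interval of 83.02 to 18969. Its co-receptor TDGF1 went from 46.1 and 44.2 CPM to 0.0762, 0 and 0 CPM, which is a count ratio of 917 between the stages, with a 95% counting interval of 312 to 4461. The feedback inhibitor LEFTY2 went from 104 and 129 CPM to 0.0762, 0 and 0.0722 CPM (log2 -10.60 ± 0.53, adjusted p = 2.5e-06), and LEFTY1, a near-identical copy with which it could share reads, went from 21.98 and 32.4 CPM to 2.29, 1.17 and 1.01 CPM (log2 -4.13 ± 0.53, adjusted p = 6.3e-04). FOXH1, the DNA-binding partner of the activated SMADs, went from 56.4 and 44.7 CPM to 0.3303, 0.518 and 0.433 CPM (log2 -6.94 ± 0.44, adjusted p = 7.4e-06). FST, the activin-binding protein follistatin, went from 870.3 and 834 CPM to 5.13, 7.51 and 8.09 CPM (log2 -6.95 ± 0.46, adjusted p = 1.1e-05). For each of these genes the DE and PP2 libraries were far apart. The signal transducers SMAD2 (log2 -0.40), SMAD3 (-0.04) and SMAD4 (0.77) and the type II receptors ACVR2A (0.69) and ACVR2B (0.32) did not pass (SMAD4 passed without PP2 replicate 2), and the 1 member that rose was the type I receptor ACVR1B, at 24.1 and 33.7 CPM in DE and 96.2, 56.7 and 65.4 CPM in PP2 (log2 1.33 ± 0.36, adjusted p = 0.0203). That rise was lost without DE replicate 1 (adjusted p = 0.149 by the same test) or DE replicate 2 (adjusted p = 0.0692).

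The broader definitive endoderm list, which shares CER1, GSC and GATA6 with the first, divided. Of 15 tested members, 8 fell and 1 rose, with a median of -1.10; without PP2 replicate 2 a second member rose. SOX17, the SRY-box factor that defines the layer, went from 182 and 168 CPM in DE through 3.77 and 3.48 CPM in PP1 to 0.584, 0.388 and 0.361 CPM in PP2 (log2 -8.49 ± 0.41, adjusted p = 2.5e-06). OTX2, an anterior homeobox factor, went from 153 and 187 CPM to 1.42, 0.388 and 0.6501 CPM (log2 -7.50 ± 0.53, adjusted p = 1.4e-05). CXCR4, the chemokine receptor used to sort definitive endoderm, went from 88.3 and 128 CPM to 24.5, 10.2 and 16.8 CPM (log2 -2.64 ± 0.39, adjusted p = 9.8e-04), with PP1 lower still at 3.498 and 3.48 CPM. The pioneer factors FOXA1 and FOXA2 moved in opposite directions. FOXA1 went from 12.4 and 1.63 CPM to 105, 105 and 81.3 CPM (log2 3.78 ± 0.67, adjusted p = 0.00289) and FOXA2 from 354 and 265 CPM to 84.8, 92.4 and 58.3 CPM (log2 -1.98 ± 0.37, adjusted p = 0.00376), the latter with adjusted p = 0.0507 without DE replicate 1. GATA4 (log2 -0.19) and HHEX (-0.67) did not pass.

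Part of the residual pluripotency genes fell as well. Of 13 tested members of that list, 6 fell and 1 rose, with a median of -2.09. L1TD1, an RNA-binding protein of embryonic stem cells, went from 182 and 218 CPM to 4.12, 3.11 and 5.85 CPM (log2 -5.51 ± 0.40, adjusted p = 1.5e-05). DNMT3B, a de novo DNA methyltransferase, went from 119 and 89.1 CPM to 15.2, 15.7 and 16.9 CPM (log2 -2.71 ± 0.30, adjusted p = 1.9e-04). NANOG was at 4.61 and 5.25 CPM in DE with 0 counts in every PP1 and PP2 library, which makes it at least 100.1-fold lower in PP2, taking 3 counts over the group as the floor (35.4-fold with a library left out). POU5F1 had only 11 counts over both DE libraries and none in PP2, and did not pass the low-count filter. The member that rose was SOX2, at 1.42 and 0 CPM in DE and 6.99, 10.1 and 11.1 CPM in PP2 (log2 3.69 ± 0.93, adjusted p = 0.0157), a factor that foregut endoderm also uses; its call was lost without PP2 replicate 3 (adjusted p = 0.0622 by edgeR's quasi-likelihood test).

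**Figure D2:**
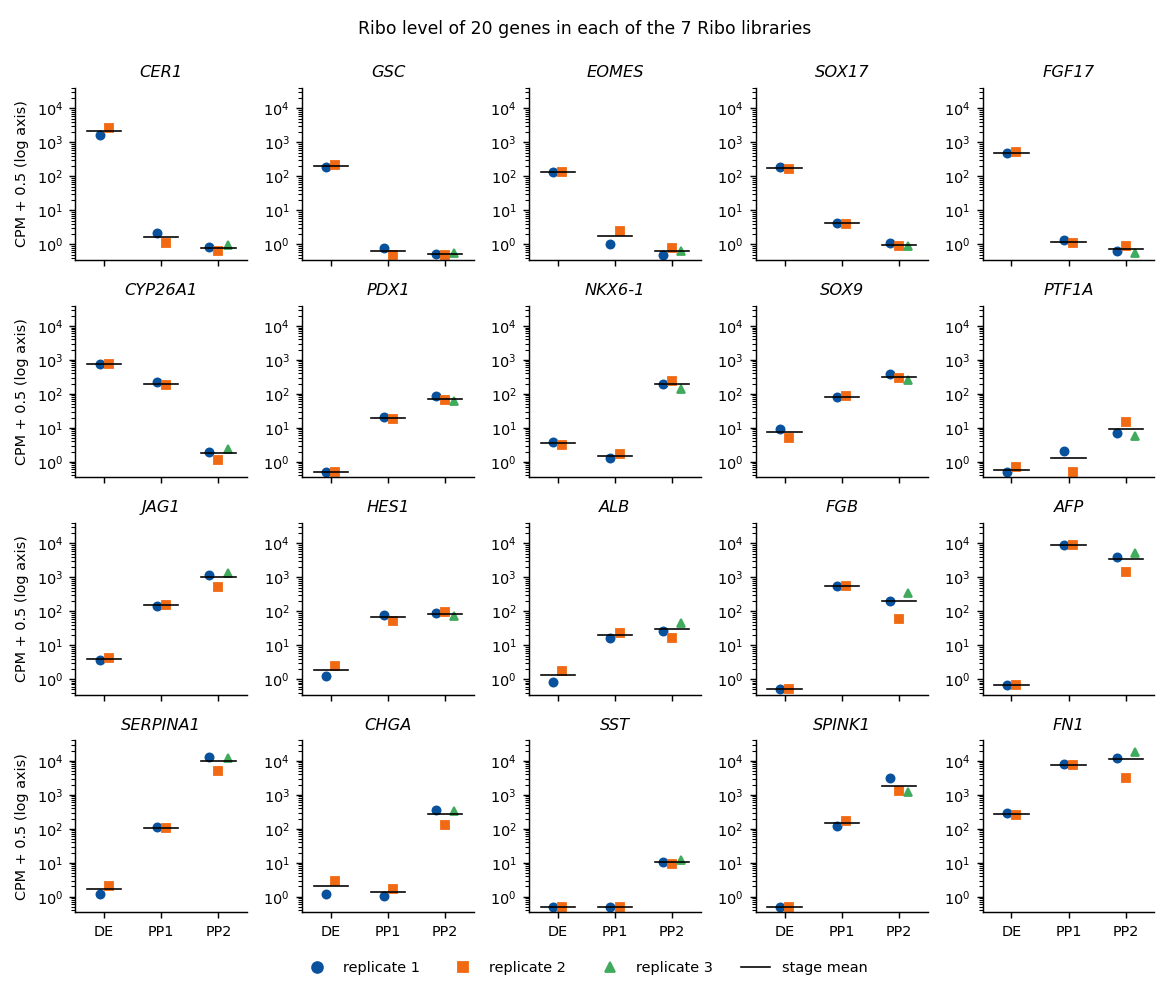
Ribo level (CPM + 0.5, log axis) of 20 genes in the 7 Ribo libraries, by stage; each symbol is a library and each line a stage mean. CER1, GSC, EOMES and SOX17 drop between DE and PP1, PDX1, SOX9 and JAG1 climb in both steps, AFP is highest in PP1, and NKX6-1, CHGA and SST climb after PP1.

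The pancreatic progenitor list went the other way. Of 20 tested members of 22, 12 rose and 2 fell, with a median log2 of 3.34, and single PP2 libraries against the DE mean gave medians of 2.80, 2.75 and 2.81, so that PP2 replicate 2 moved about as far as the others. Between 10 and 13 members were higher when one library was left out. The 2 that fell were FOXA2 and GATA6; none fell without DE replicate 1, 1 without DE replicate 2, either PP1 library or PP2 replicate 3, and 3 without PP2 replicate 2. PDX1 (chr13:27920000-27926313) had 0 counts in both DE libraries, 20.7 and 17.7 CPM in PP1 and 83.9, 67.4 and 60.5 CPM in PP2, which is at least 285-fold higher, or 141-fold with a library left out. NKX6-1 (chr4:84491985-84499292) stood at 3.37 and 2.72 CPM in DE, 0.807 and 1.16 CPM in PP1 and 190.4, 240.4 and 134 CPM in PP2 (log2 5.95 ± 0.48, adjusted p = 2.7e-05). Its level was lower in PP1 than in DE, and every PP2 library was far above all DE and PP1 libraries.

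SOX9, the SRY-box factor that maintains progenitors, rose in both steps, from 9.04 and 4.53 CPM through 79.1 and 83.9 CPM to 385, 291 and 258 CPM (log2 5.52 ± 0.52, adjusted p = 6.6e-05). HES1, a Notch-driven repressor of endocrine commitment, went from 0.709 and 1.99 CPM through 78.6 and 52.3 CPM to 91.5, 92.4 and 70.4 CPM (log2 5.96 ± 0.53, adjusted p = 4.6e-05). NR5A2, a nuclear receptor of the pancreas and liver, went from 1.596 and 2.17 CPM to 21.4, 16.3 and 16.7 CPM (log2 3.26 ± 0.44, adjusted p = 5.6e-04). All PP2 libraries were above all DE libraries for these genes. Genes of the multipotent tip progenitors rose as well: the procarboxypeptidase CPA1 went from 0 and 1.45 CPM in DE to 34.8, 20.3 and 21.2 CPM in PP2 (log2 5.13 ± 0.90, adjusted p = 0.00275). PTF1A, the factor that drives acinar fate, had 1 count over both DE libraries and 6.33, 14.2 and 5.13 CPM in PP2, which is a count ratio of 78.8 between the stages, with a 95% counting interval of 14.1 to 3119; its call was lost without DE replicate 1 (adjusted p = 0.0517 by edgeR's quasi-likelihood test). ONECUT2, a CUT homeobox factor, passed its peak in PP1: it stood at 3.72 and 5.25 CPM in DE, 221 and 162 CPM in PP1 and 25.8, 64.3 and 54.03 CPM in PP2 (log2 3.41 ± 0.50, adjusted p = 0.00101). ONECUT1 (log2 0.07) and MNX1 (0.05) did not pass.

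DLK1, a transmembrane Notch-family protein of fetal tissues, was the gene of this list with the most footprints. It went from 35.99 and 31.3 CPM in DE through 151 and 147 CPM in PP1 to 12127, 5003 and 10202 CPM in PP2 (log2 8.08 ± 1.03, adjusted p = 4.4e-04). PP2 replicate 2 was the lowest of the PP2 libraries but stood far above both DE libraries.

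Secreted proteins shared with liver were among the largest gains. Of 17 tested members of the hepatic and plasma protein list, 13 rose and none fell, with a median log2 of 5.25 (5.27 with genes of 3 counts or fewer at their ratio or bound); between 11 and 14 of the list were higher with one library left out. Its share of protein-coding counts was 0.026% and 0.023% in the DE libraries, 3.39% and 3.42% in the PP1 libraries and 3.39%, 1.88% and 3.59% in PP2. Of the 13, 8 had a higher mean in PP1 than in PP2. AFP (chr4:73436221-73456174), the fetal counterpart of albumin, had 1 count in each DE library, 9221 and 9093 CPM in PP1 and 3877, 1429.5 and 5293 CPM in PP2, which is a count ratio of 21699.6 between the stages, with a 95% counting interval of 6007 to 179182. SERPINA1 (chr14:94376747-94390635), the antiprotease alpha-1 antitrypsin, rose in both steps, at 0.709 and 1.63 CPM, 109 and 105 CPM and 12892, 5076 and 11807 CPM (log2 13.04 ± 1.33, adjusted p = 1.1e-04). AFP was thus highest in PP1 and SERPINA1 highest in PP2.

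TTR, the thyroxine carrier transthyretin, stood at 1.06 and 0 CPM in DE, 1205 and 1462 CPM in PP1 and 775, 344 and 1120.03 CPM in PP2 (log2 10.41 ± 1.15, adjusted p = 1.8e-04). APOA1, the main protein of high-density lipoprotein, went from 21.8 and 14.9 CPM to 794, 289.98 and 1015 CPM (log2 5.25 ± 0.70, adjusted p = 5.4e-04). APOB, which builds the low-density particles, had 946 and 972 CPM in PP1 and fell back to 269.6, 85.8 and 430.4 CPM in PP2, still above the 2.305 and 1.27 CPM of DE (log2 7.19 ± 0.87, adjusted p = 3.2e-04). All 3 fibrinogen chains rose. FGB had 0 counts in DE and 196, 59.5 and 342 CPM in PP2 (at least 789-fold higher, or 390.1-fold with a library left out). FGG went from 0 and 0.543 CPM to 53.99, 15.1 and 105 CPM (a count ratio of 225 between the stages, with a 95% counting interval of 77.05 to 1093), and FGA from 0.886 and 1.45 CPM to 155, 49.3 and 197 CPM (log2 6.83 ± 0.76, adjusted p = 1.8e-04). Each chain was higher in both PP1 libraries than in any PP2 library. Albumin itself (ALB) reached only 26.5, 15.7 and 44.6 CPM in PP2, from 0.355 and 1.27 CPM in DE (log2 5.14 ± 0.68, adjusted p = 5.4e-04). The liver enzyme genes TAT and CYP3A7 did not pass the low-count filter. HNF4A, the nuclear receptor that drives this programme, rose from 9.04 and 10.7 CPM to 30.3, 23.8 and 28.03 CPM (log2 1.47 ± 0.33, adjusted p = 0.00901), with adjusted p = 0.0745 without DE replicate 1 and 0.05096 without DE replicate 2. In these bulk libraries fewer cells of a type and less RNA per cell cannot be told apart.

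Because these genes rose together, their start regions were searched for the 13-base HNF1 palindrome, GTTAAT and ATTAAC around 1 free base, on both strands with up to 2 mismatches, in RefSeq windows of GRCh38.p14 from 250 bases before to 50 bases after each start. The motif was in 6 of the 15 hepatic-list windows (40%), against 169 of 15843 protein-coding windows (1.07%), 25 of 1538 windows of genes that rose (1.63%) and 6 of 1232 windows of genes that fell (0.487%). The stretches below show it with 13 bases on each side, 5′ to 3′ on the gene's strand, with the match in capitals. SPINK1 and SLC26A3 are the acinar and ductal genes described further on.
AFP: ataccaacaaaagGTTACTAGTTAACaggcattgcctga
ALB: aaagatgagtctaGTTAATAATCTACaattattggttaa
FGA: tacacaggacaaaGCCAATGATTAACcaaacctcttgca
FGB: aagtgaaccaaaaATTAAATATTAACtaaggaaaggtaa
HNF4A: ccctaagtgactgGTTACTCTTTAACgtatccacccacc
SPINK1: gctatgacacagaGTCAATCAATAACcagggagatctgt
SLC26A3: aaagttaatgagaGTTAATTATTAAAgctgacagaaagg
The stretches lie at chr4:73436147-73436185 (AFP, plus strand), chr4:73404213-73404251 (ALB, plus), chr4:154590776-154590814 (FGA, minus), chr4:154562909-154562947 (FGB, plus), chr20:44355611-44355649 (HNF4A, plus), chr5:147831703-147831741 (SPINK1, minus) and chr7:107803281-107803319 (SLC26A3, minus). In AFP and ALB the match ended 49 bases before the start, in FGA 47, in FGB 46 and in SPINK1 45, and in HNF4A and SLC26A3 63 and 71 bases before it. The 7 stretches are the matches nearest to the start of called genes in the hepatic, acinar and ductal lists. The share with a match was not computed for the acinar and ductal lists. Listed genes without a call also held a match, namely EIF2S1 (tested, not passed) and SLC26A9 (not tested). The remaining hepatic gene with matches was APOH, which did not pass the low-count filter. The FOXA word TGTTTAC was in 1 of the 15 hepatic windows (6.67%; 2.61% of all windows) and the T-box word TCACACCT in none (0.915% of all windows), each searched without mismatches on both strands. A match is a string of letters and was not tested as a binding site.

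Exocrine, endocrine and ductal genes followed. Of 15 acinar genes 5 passed the low-count filter; 3 rose and none fell, and 3 or 4 rose when one library was left out (1 fell without PP2 replicate 2). SPINK1 (chr5:147824582-147839196), the pancreatic secretory trypsin inhibitor, had 0 counts in DE, 120.3 and 169 CPM in PP1 and 3051, 1293 and 1179.99 CPM in PP2, which is at least 8940.2-fold higher, or 4422-fold with a library left out. The procarboxypeptidase CPB1 went from 0 and 1.63 CPM to 59.9, 16.2 and 37.8 CPM (log2 5.54 ± 0.93, adjusted p = 0.00208). PRSS1, trypsinogen, went from 2.84 and 2.35 CPM to 42.6, 16.96 and 44.9 CPM (log2 3.74 ± 0.52, adjusted p = 7.4e-04), although it could share reads with its near copy PRSS2. The lipase PNLIP, the amylase AMY2A and the chymotrypsinogen CTRB1 had no count in any DE or PP2 library.

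Of 24 endocrine genes, 15 were tested, of which 7 rose and 3 fell, with 5 to 8 rising when one library was left out. The granule proteins led the rise. CHGA, chromogranin A, went from 0.709 and 2.35 CPM in DE and 0.538 and 1.16 CPM in PP1 to 363, 132 and 325 CPM in PP2 (log2 7.47 ± 0.75, adjusted p = 9.8e-05), and SCG2, secretogranin II, from 0 counts in DE to 49.5, 15.9 and 59.5 CPM (at least 177-fold higher, or 87.5-fold with a library left out). SST, the hormone somatostatin, had 0 counts in DE and PP1 and 10.2, 8.54 and 11.3 CPM in PP2 (at least 38.2-fold higher, or 18.9-fold with a library left out). GHRL, the hormone ghrelin, had 1 count in DE and 9.43, 4.66 and 5.85 CPM in PP2 (a count ratio of 89.4 between the stages, with a 95% counting interval of 15.97 to 3538), with adjusted p = 0.0792 in edgeR's quasi-likelihood test with PP2 replicates 1 and 3 both left out. INS, GCG and PPY, the hormones of beta, alpha and PP cells, did not pass the low-count filter, and PPY had no count in any Ribo library. NEUROG3, the factor that starts endocrine commitment, was at 1.98, 0.388 and 0.867 CPM in PP2 and 0 counts in DE, and did not pass the filter either. RFX6, a winged-helix factor of gut and islet, had 1 count in DE, 48.7 and 54.6 CPM in PP1 and 10.2, 11.7 and 9.25 CPM in PP2 (a count ratio of 114 between the stages, with a 95% counting interval of 20.3 to 4501).

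Of the 3 endocrine-list genes that fell, PAX6 and ISL1 are homeobox factors that other early tissues also use. PAX6 went from 53.7 and 42.9 CPM in DE to 0.0762, 0.518 and 0.144 CPM in PP2 (log2 -8.03 ± 0.81, adjusted p = 9.8e-05). ISL1 went from 16.3 and 15.8 CPM to 0.864, 0.777 and 0.578 CPM (log2 -4.40 ± 0.53, adjusted p = 3.2e-04). The DE and PP2 libraries did not overlap for either of them.

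Among 14 tested ductal ion channels and transporters, 8 rose and 2 fell; 6 to 8 rose when one library was left out, while 4 fell without PP2 replicate 2 and 1 without DE replicate 1. SLC4A4, the sodium bicarbonate cotransporter, went from 4.08 and 5.07 CPM through 22.1 and 11.9 CPM to 709, 347 and 662 CPM (log2 6.96 ± 0.64, adjusted p = 5.8e-05). CFTR, the chloride channel of duct cells, went from 0.355 and 0.543 CPM to 17.3, 9.71 and 22.97 CPM (log2 5.19 ± 0.62, adjusted p = 3.0e-04), and the chloride and bicarbonate exchanger SLC26A3 from 1.596 and 0.181 CPM to 53.7, 29.8 and 35.6 CPM (log2 5.46 ± 0.68, adjusted p = 3.9e-04). The subunits of the epithelial sodium channel differed in direction: SCNN1G rose from 0.532 and 0.362 CPM to 48.99, 19.7 and 31.1 CPM (log2 6.18 ± 0.67, adjusted p = 2.6e-04), SCNN1A fell from 20.9 and 19.6 CPM to 2.77, 2.07 and 1.81 CPM (log2 -3.17 ± 0.44, adjusted p = 6.9e-04), and SCNN1B was at 2.13 and 1.09 CPM and 2.08, 0.906 and 1.30 CPM (log2 -0.14, not passed).

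**Figure D3:**
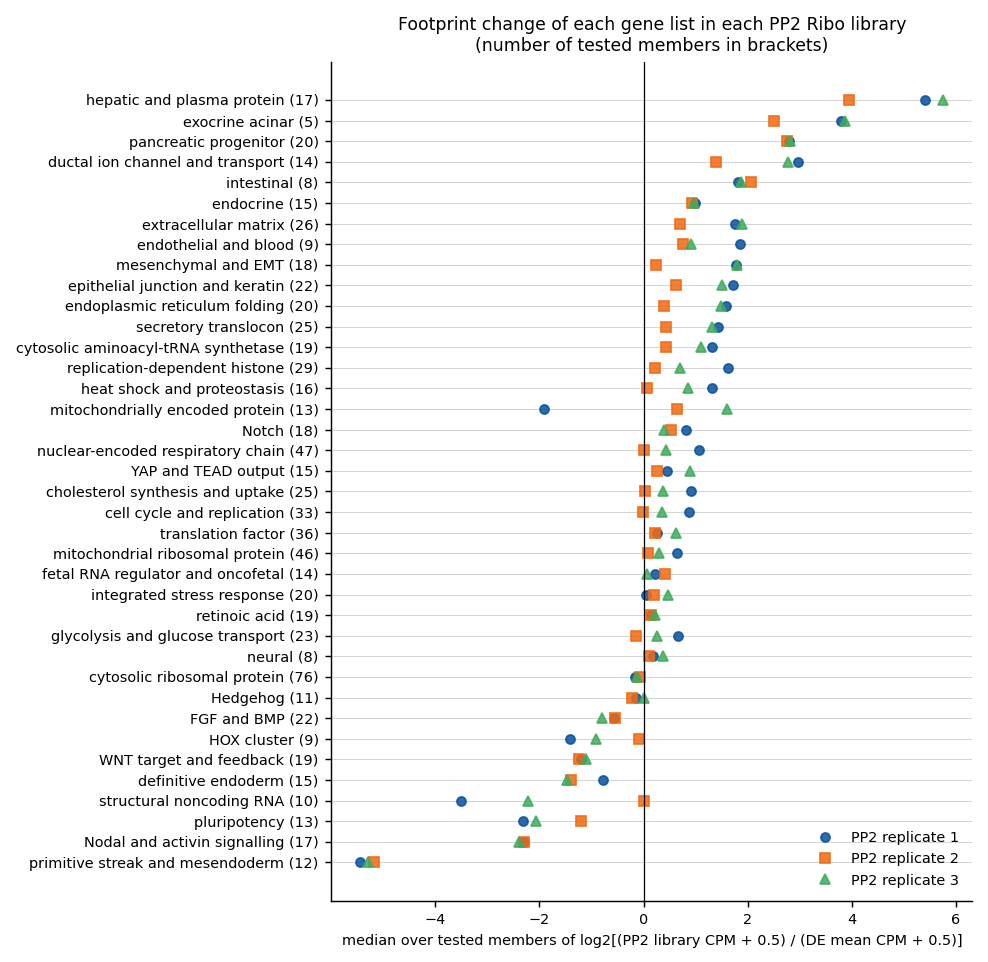
Median over the tested members of each gene list of log2[(CPM in a PP2 library + 0.5) / (DE mean CPM + 0.5)], 1 symbol for each of the 3 PP2 libraries. The primitive streak and Nodal lists lie to the left and the hepatic and pancreatic lists to the right in all 3 libraries, while matrix genes lie at 1.76 and 1.90 in replicates 1 and 3 and at 0.70 in replicate 2.

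Signalling pathways changed in their parts. In the retinoic acid pathway, which patterns the foregut, 6 of 19 tested genes rose and 6 fell; without DE replicate 1 the counts were 4 and 5, and without DE replicate 2 they were 3 and 5. The degrading enzyme CYP26A1 fell from 748 and 780.2 CPM through 217 and 177 CPM to 1.397, 0.647 and 1.88 CPM (log2 -9.13 ± 0.57, adjusted p = 7.4e-06). The cellular retinoic acid-binding proteins fell too, CRABP2 from 146 and 132 CPM to 11.3, 6.47 and 14.1 CPM (log2 -3.70 ± 0.38, adjusted p = 1.1e-04) and CRABP1 from 34.9 and 42.4 CPM to 4.98, 1.81 and 3.83 CPM (log2 -3.41 ± 0.46, adjusted p = 6.0e-04). DHRS3, which turns retinal back into retinol, rose from 3.19 and 4.71 CPM to 189.8, 139.7 and 158 CPM (log2 5.36 ± 0.46, adjusted p = 3.7e-05). The synthesizing enzymes differed in direction: ALDH1A1 went from 0.355 and 0.906 CPM to 41.7, 11.7 and 34.3 CPM (log2 5.52 ± 0.73, adjusted p = 5.3e-04) and ALDH1A3 from 5.32 and 14.5 CPM to 0.102, 0 and 0.0722 CPM (log2 -6.85 ± 0.90, adjusted p = 5.1e-04), while ALDH1A2, at 0 and 2.35 CPM in DE and 1.296, 1.68 and 1.44 CPM in PP2, did not pass (log2 0.32).

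In the Notch pathway, ligands, receptors and targets rose. Of 18 tested members, 7 rose and 1 fell; 5 to 8 rose when one library was left out, and the fall, of HES6, was lost without any one library except PP2 replicate 2, without which 2 fell. The ligand JAG1 went from 3.19 and 3.62 CPM in DE through 146 and 156 CPM in PP1 to 1191, 518 and 1317 CPM in PP2 (log2 8.21 ± 0.74, adjusted p = 4.7e-05). The receptor NOTCH1 went from 30.3 and 36.6 CPM to 479.9, 272 and 427 CPM, all of it after PP1, which stood at 25.8 and 13.9 CPM (log2 3.55 ± 0.49, adjusted p = 6.8e-04). The target HEY1 had 3 counts in DE and 22.03, 23.2 and 20.4 CPM in PP2, which is a count ratio of 81.2 between the stages, with a 95% counting interval of 27.7 to 394. The ligands DLL1 (log2 1.57) and DLL4 (3.17) and the receptor NOTCH2 (2.30) also rose, but DLL1 was lost without DE replicate 1 (adjusted p = 0.0752 by edgeR's quasi-likelihood test) or DE replicate 2 (0.0803), NOTCH2 without DE replicate 1 (0.0609) and DLL4 with PP2 replicates 1 and 3 both left out (0.115). NOTCH3 (log2 0.77) and the nuclear effector RBPJ (0.78) did not pass, although NOTCH3 did without PP2 replicate 2 (adjusted p = 0.0132 by edgeR's quasi-likelihood test).

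Among WNT ligands, targets and feedback genes, more fell than rose, with 10 lower and 3 higher of 19 tested and a median of -1.02; 6 fell without DE replicate 1. AXIN2, the general target and feedback gene of beta-catenin, went from 20.2 and 27.5 CPM to 2.16, 1.29 and 2.17 CPM (log2 -3.64 ± 0.50, adjusted p = 7.2e-04). LGR5, the R-spondin receptor, went from 33.2 and 49.6 CPM to 0, 0.777 and 0 CPM (log2 -8.17 ± 1.28, adjusted p = 0.00139; adjusted p = 0.0622 in DESeq2's Wald test), and the ligand WNT3 went from 20.03 and 15.8 CPM to 0.864, 2.72 and 0.867 CPM (log2 -3.67 ± 0.62, adjusted p = 0.00223). The secreted inhibitors differed in direction: SFRP1 fell from 267 and 270.2 CPM to 98.03, 33.1 and 52.4 CPM (log2 -2.13 ± 0.43, adjusted p = 0.00593), and SFRP5, which marks foregut endoderm, rose from 1.42 and 0.543 CPM through 25.02 and 32.5 CPM to 172, 80.9 and 184 CPM (log2 7.20 ± 0.64, adjusted p = 4.6e-05). The receptors FZD5 (log2 0.32) and FZD7 (1.08) did not pass, although FZD7 did without PP2 replicate 2 (adjusted p = 0.003295 by edgeR's quasi-likelihood test).

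In the FGF and BMP list, 7 of 22 tested genes fell and 3 rose; without either DE library 1 rose. The early ligand FGF17 went from 479.6 and 530.1 CPM to 0.152, 0.388 and 0.0722 CPM (log2 -11.44 ± 0.59, adjusted p = 2.5e-06) and FGF8 from 82.4 and 63.03 CPM to 2.46, 4.66 and 3.61 CPM (log2 -4.37 ± 0.38, adjusted p = 4.2e-05). BMP2 went from 113 and 105 CPM to 16.5, 12.8 and 23.9 CPM (log2 -2.61 ± 0.34, adjusted p = 4.7e-04). The targets ID1 and ID3, inhibitors of helix-loop-helix factors, fell with log2 -3.74 ± 0.35 and -2.36 ± 0.41, and the inhibitory SMAD6 with -3.81 ± 0.49. FGFR4 rose from 21.5 and 19.02 CPM to 134, 106 and 127 CPM (log2 2.60 ± 0.36, adjusted p = 7.5e-04). FGFR2, the receptor for the mesenchymal signals that expand progenitors, rose from 63.3 and 53.6 CPM to 204, 167 and 293 CPM (log2 1.92 ± 0.40, adjusted p = 0.00641), with adjusted p = 0.0572 without DE replicate 1 and 0.0758 without DE replicate 2. Among 11 tested Hedgehog genes, 3 rose and 1 fell, but 1 rose and none fell without either DE library, and 1 rose without PP2 replicate 3. The gain kept when any one library was left out was the ligand IHH, at 1.42 and 2.17 CPM in DE, 72.6 and 53.4 CPM in PP1 and 15.3, 11.1 and 17.3 CPM in PP2 (log2 3.02 ± 0.43, adjusted p = 8.8e-04), whereas SHH (log2 -0.09) did not pass.

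**Figure D4:**
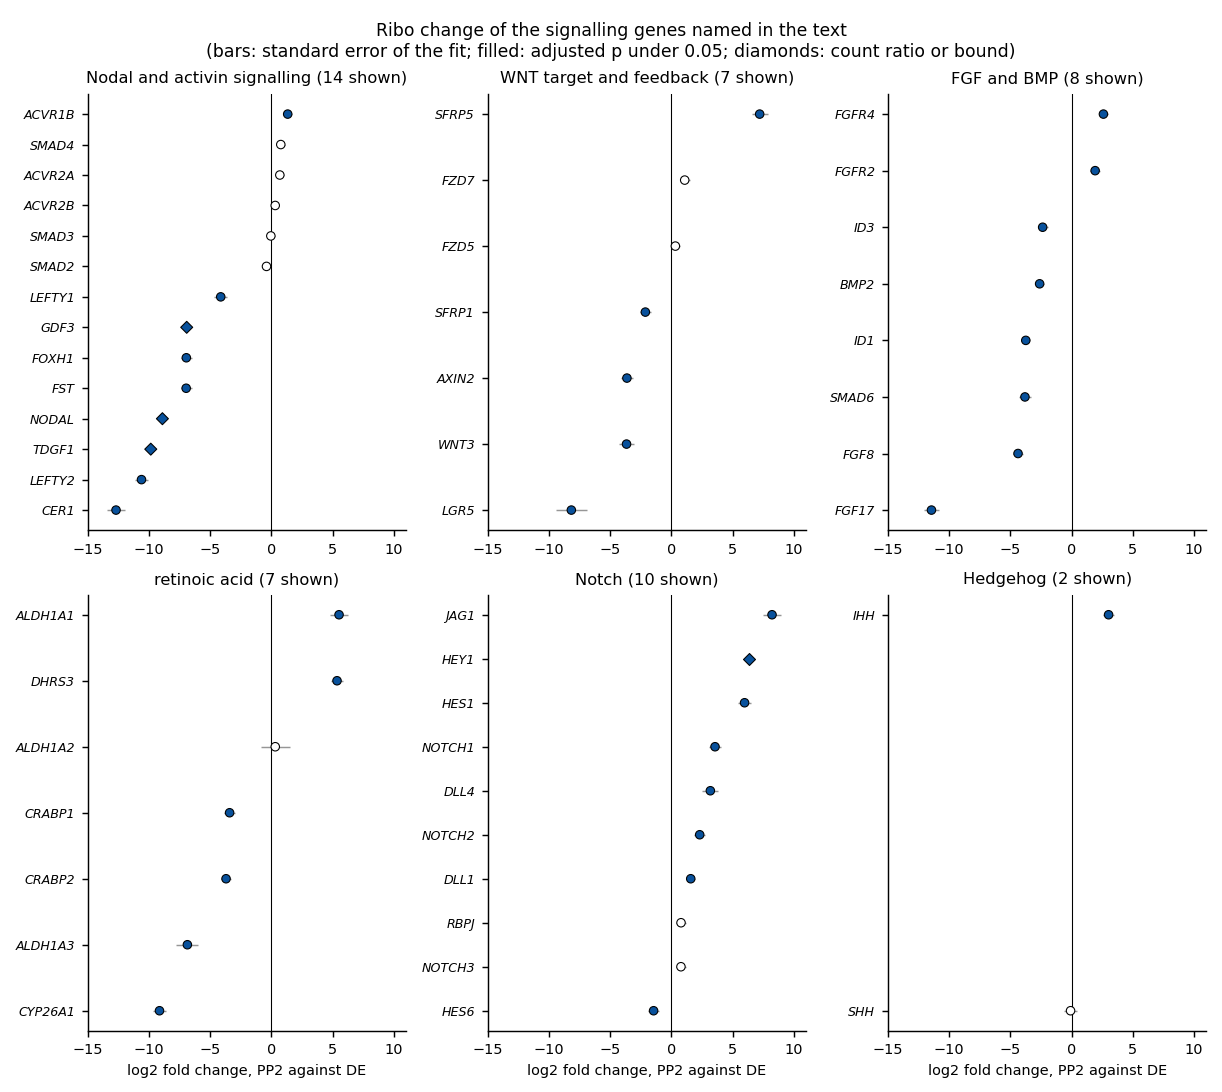
Log2 fold change of PP2 against DE for those tested genes of 6 signalling lists that the text names, with the standard error of the fit as a bar; filled symbols have an adjusted p under 0.05, and diamonds are genes with 3 counts or fewer in a stage, drawn at their ratio or bound. JAG1 (8.21) and SFRP5 (7.20) lie farthest to the right, and CER1 (-12.68), FGF17 (-11.44) and CYP26A1 (-9.13) far to the left.

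Many adhesion and matrix genes rose, with larger steps in PP2 replicates 1 and 3 than in replicate 2. Of 22 epithelial junction and keratin genes, 11 rose and none fell, with a median of 1.39; without DE replicate 1 or 2, 3 or 5 rose, and without PP2 replicate 2 there were 15. All 11 had their PP1 mean between DE and PP2. CDH1, E-cadherin, went from 33.7 and 41.1 CPM in DE through 224 and 233 CPM in PP1 to 1243, 406 and 913 CPM in PP2 (log2 4.51 ± 0.63, adjusted p = 7.3e-04). CDH6, a cadherin of fetal kidney and foregut, had 1 count in DE and 517, 297 and 601 CPM in PP2 (a count ratio of 5673 between the stages, with a 95% counting interval of 1018 to 224059), and CLDN4, a claudin of tight junctions, went from 4.61 and 2.17 CPM to 123, 46.9 and 81.3 CPM (log2 4.62 ± 0.56, adjusted p = 3.1e-04). These 3 kept their calls when any one library was left out. Keratins KRT8 and KRT18 rose with log2 2.44 and 2.60, but both were lost without DE replicate 1 (adjusted p = 0.0889 and 0.0683 by edgeR's quasi-likelihood test) or DE replicate 2 (0.0961 and 0.0764). EPCAM (log2 1.27) passed only without PP2 replicate 2 among the left-out libraries (adjusted p = 0.00173).

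Of 26 extracellular matrix genes, 15 rose and 3 fell; without DE replicate 1 the counts were 7 and 3, without DE replicate 2 they were 7 and 2. The list took 1.06% and 1.10% of protein-coding counts in DE and 4.03%, 1.84% and 5.12% in PP2. FN1, fibronectin, had the largest rise in CPM of the protein-coding genes that passed: it stood at 291 and 248 CPM in DE and 12138, 3086 and 18544 CPM in PP2 (log2 5.39 ± 1.16, adjusted p = 0.007605). PP2 replicate 2 was the lowest PP2 library and still above both DE libraries, and the call was lost without DE replicate 1 (adjusted p = 0.0853 by edgeR's quasi-likelihood test) or DE replicate 2 (0.0898). Basement membrane genes that kept their calls when any one library was left out included LAMC1, the laminin gamma 1 chain, at 37.1 and 56.1 CPM in DE and 607, 279.7 and 682 CPM in PP2 (log2 3.49 ± 0.56, adjusted p = 0.00159), NID1, the linker nidogen, at 15.96 and 16.5 CPM in DE and 437, 175 and 371 CPM in PP2 (log2 4.34 ± 0.53, adjusted p = 3.2e-04), and FREM2, at 20.9 and 28.3 CPM in DE and 615, 174 and 549 CPM in PP2 (log2 4.18 ± 0.63, adjusted p = 0.00112). Fibrillar COL2A1 went from 35.99 and 47.1 CPM to 841, 282 and 895 CPM (log2 4.02 ± 0.61, adjusted p = 0.00124). The genes that fell were COL6A1, COL6A2 and TNC; COL6A2 went from 409.5 and 456 CPM to 72.7, 39.7 and 96.8 CPM (log2 -2.63 ± 0.43, adjusted p = 0.00176) and tenascin TNC from 80.8 and 94.0 CPM to 13.4, 3.62 and 18.1 CPM (log2 -2.88 ± 0.51, adjusted p = 0.00288). COL6A1 (log2 -2.09) was lost without DE replicate 2 (adjusted p = 0.0519).

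Markers of mesenchyme moved beside these matrix genes, and their part in the matrix result was not tested. Of 18 tested members, 7 rose and 1 fell, but 2 rose and none fell without DE replicate 1, 3 rose without PP2 replicate 3, and 11 rose without PP2 replicate 2. COL3A1, a fibrillar collagen of stroma, went from 0.886 and 1.09 CPM to 262, 88.7 and 459 CPM (log2 8.08 ± 0.86, adjusted p = 1.4e-04), and CDH11, a mesenchymal cadherin, from 0.532 and 2.72 CPM to 90.96, 47.6 and 102 CPM (log2 5.62 ± 0.68, adjusted p = 3.2e-04). VIM, vimentin, rose with log2 2.20, a call lost without DE replicate 1 (adjusted p = 0.139 by edgeR's quasi-likelihood test), DE replicate 2 (0.0936) or PP2 replicate 3 (0.0645). The stromal factors PRRX1, TWIST2 and FOXF1 were under 1 CPM in all PP2 libraries and did not pass the low-count filter. The list summed to 425 and 546 CPM in DE and to between 714 and 2301 CPM in PP2.

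Genes of the secretory apparatus also rose, in the same uneven way. Of 20 endoplasmic reticulum folding genes 8 rose and none fell, with a median of 1.198, and of 25 genes of the secretory translocon and its partners 9 rose and none fell, with a median of 1.02. These calls rested on both DE libraries: 2 folding genes rose without either DE replicate, and 0 and 1 translocon genes rose without DE replicate 1 and 2. Without PP2 replicate 2, 17 and 16 rose; without PP2 replicate 3, 4 and 6 did, and without either PP1 library, 5 and 8. Their RNA medians were -0.33 and 0.06. Single PP2 libraries gave folding medians of 1.58, 0.40 and 1.49. Folding genes that kept their calls when any one library was left out were the co-chaperones DNAJC3, at 12.1 and 11.05 CPM in DE and 66.5, 32.6 and 45.4 CPM in PP2 (log2 2.06 ± 0.39, adjusted p = 0.00388), and DNAJB9, at 1.77 and 0.906 CPM in DE and 21.8, 11.1 and 17.3 CPM in PP2 (log2 3.64 ± 0.52, adjusted p = 8.5e-04). SEC63, a translocon partner, went from 16.8 and 26.8 CPM to 86.9, 45.3 and 152 CPM (log2 2.12), with adjusted p = 0.102 and 0.0508 without DE replicate 1 and 2 by edgeR's quasi-likelihood test. The main chaperone HSPA5 (log2 1.31) did not pass, but did without PP2 replicate 2 (adjusted p = 0.00153 by edgeR's quasi-likelihood test).

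Amino acid and stress genes gave a smaller set. Of 20 genes of the integrated stress response, 6 rose and none fell, 5 of them with a higher PP1 than PP2 mean. The share called was near the 27.6% over all genes, of which 13.1% were higher and 14.5% lower. The list median was 0.25, against 0.17 over protein-coding genes, and 0.0975 without DE replicate 2. In this list 1 gene fell without PP2 replicate 2 and 2 fell without PP2 replicate 3. PHGDH, which opens serine synthesis, went from 43.3 and 38.8 CPM through 351 and 441 CPM to 606, 299 and 474 CPM (log2 3.49 ± 0.50, adjusted p = 9.2e-04), and the secreted STC2 from 3.72 and 1.63 CPM through 78.6 and 56.3 CPM to 28.0, 23.6 and 58.7 CPM (log2 3.77 ± 0.56, adjusted p = 0.00111). ATF4, the factor at the head of the response, was at 168 and 138 CPM in DE, 262 and 349 CPM in PP1 and 145, 157 and 83.4 CPM in PP2 (log2 -0.25, not passed). Of 19 cytosolic aminoacyl-tRNA synthetases, 7 rose and none fell, with 3 rising without DE replicate 1, none without DE replicate 2 and 14 without PP2 replicate 2. EPRS went from 22.2 and 15.4 CPM to 145, 48.3 and 137 CPM (log2 2.55; adjusted p = 0.0642 without DE replicate 2).

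Few genes of the translation machinery passed the test. Of 76 cytosolic ribosomal protein genes tested, none rose and 1 fell, with a median of -0.02. None fell without DE replicate 1 or PP2 replicate 3. Near copies and pseudogenes of this family could share reads. Without PP2 replicate 2, 6 rose and 14 fell; without PP2 replicate 1, 3 rose. Of 36 translation factors 2 rose and 1 fell, with none rising without either DE library, 1 without either PP1 library or PP2 replicate 3, 5 without PP2 replicate 1 and 11 without PP2 replicate 2. The factor that fell was EIF4A1, the RNA helicase that unwinds mRNA leaders. It stood at 19.1 and 28.4 CPM in DE and 0.3303, 2.59 and 0 CPM in PP2 (log2 -4.86 ± 1.03, adjusted p = 0.00716). Its RNA means were 18.1 and 16.7 CPM. Reads of EIF4A1 could have been counted under overlapping genes or not at all, which was not tested, so the fall holds for this symbol's counts only. Of 46 mitochondrial ribosomal proteins 3 rose and 1 fell, with 0 to 2 rising without any one library but PP2 replicate 2, without which 14 rose. Of 47 nuclear-encoded respiratory chain genes 4 rose and none fell, with 0 to 2 rising without any one library but PP2 replicate 2, without which 19 rose. None of the 13 mitochondrially encoded proteins passed, although 4 rose without PP2 replicate 1, and their median against the DE mean was -1.91, 0.64 and 1.61 in PP2 replicates 1, 2 and 3, so that the libraries differed in sign.

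Non-coding genes and genes with little RNA made up a separate part of the losses. Of 2035 tested non-coding or untyped genes, 60 rose and 587 fell (2.95% and 28.8%), with a median of -1.74. This depended on the filter: without one, 139 rose and 989 fell of 17691, with a median of -0.0136, and with a mean of at least 50 counts 23 rose and 98 fell of 491, with a median of -0.89. The median against the DE mean was -2.26, -0.717 and -1.77 in the 3 PP2 libraries, with replicate 2 nearest to DE. Without DE replicate 1, DE replicate 2 or PP2 replicate 3, 252, 240 and 244 fell, and without PP2 replicate 2, 1112. Their RNA median was 0.08. Among protein-coding genes, 347 had an RNA mean under 1 CPM in both DE and PP2, a split chosen after the data were seen; 9 of these rose and 159 fell (2.59% and 45.8%), with a median of -3.28; 47, 47 and 55 fell without DE replicate 1, DE replicate 2 and PP2 replicate 3. These 347 genes were taken from those that passed the Ribo low-count filter, which a gene can pass through its counts in a single stage. The run without the filter held the same 347 genes, so it cannot show how far their fall depends on the filter. Of the 12685 protein-coding genes with more RNA, 1905 rose and 1433 fell (15.0% and 11.3%), with a median of 0.19. RP1, a photoreceptor microtubule protein, was at 1276 and 2651 CPM in DE and 15.02, 116 and 24.4 CPM in PP2 (log2 -5.25 ± 0.88, adjusted p = 0.00207), with RNA means of 0.0332 and 0.1699 CPM. HIF1AN, the asparagine hydroxylase that restrains hypoxia factors, had RNA means of 122 and 147 CPM and went from 1326 and 1566 CPM to 75.5, 219 and 45.1 CPM in the Ribo libraries (log2 -3.68 ± 0.65, adjusted p = 0.00284). NCAPG, a condensin subunit, had RNA means of 85.2 and 70.8 CPM and went from 395 and 555 CPM to 44.7, 112 and 35.3 CPM in the Ribo libraries (log2 -2.89 ± 0.52, adjusted p = 0.00298). In both genes, as in RP1, PP2 replicate 2 was the highest of the PP2 libraries. Whether the Ribo reads of these genes came from ribosomes on their mRNA was not tested. The homeobox gene HOXB8, with an RNA mean under 1 CPM in both stages, stood at 39.0 and 43.1 CPM in DE and 0.3303, 8.16 and 0.433 CPM in PP2. TAL1, a blood factor of the same class, stood at 61.5 and 78.4 CPM in DE and 0.686, 19.2 and 1.52 CPM in PP2. In both, PP2 replicate 2 lay between the DE libraries and the other PP2 libraries. Both calls were lost without DE replicate 1 (adjusted p = 0.05498 and 0.0761 by edgeR's quasi-likelihood test), DE replicate 2 (0.0597 and 0.0968) or PP2 replicate 3 (0.0572 and 0.09597). The share of mitochondrial rRNA and of protein-coding counts moved with this class across libraries, and their part in it was not tested.

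**Figure D5:**
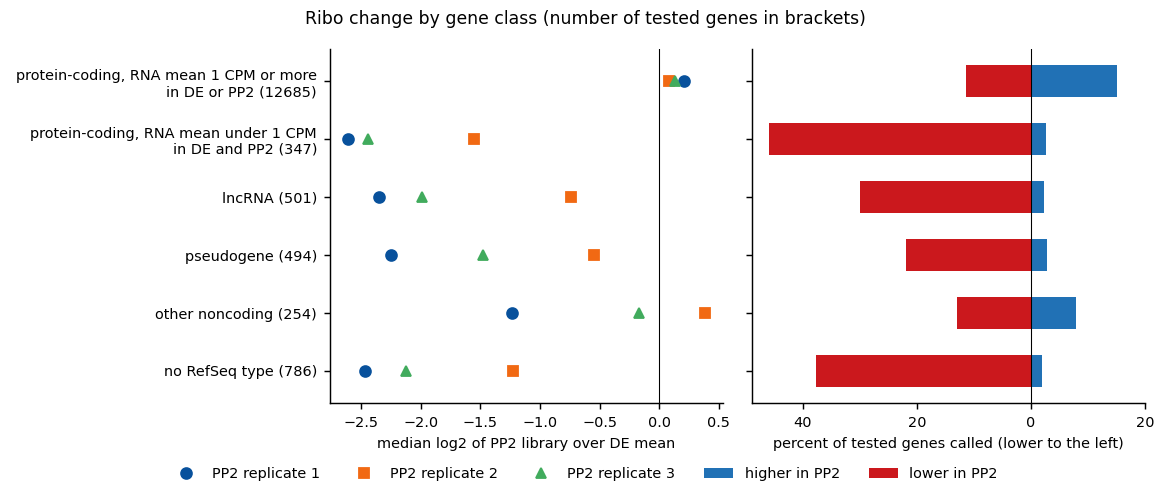
Left, median over the tested genes of each class of the log2 ratio of a PP2 library to the DE mean, 1 symbol per library; right, percent of the class called higher (blue, to the right) or lower (red, to the left). Protein-coding genes with RNA lie near 0 in all 3 libraries, while the class with RNA under 1 CPM lies at -2.61, -1.55 and -2.44 in replicates 1, 2 and 3.

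Translation efficiency, the footprint change beyond the RNA change, was tested as the interaction of assay and stage over all 14 libraries. In edgeR's quasi-likelihood test 804 of 14152 genes passed (5.68%), 284 higher (2.01%) and 520 lower (3.67%). The number moved widely with single libraries: it was 64 or 52 without RNA DE replicate 1 or 2, 377 or 372 without RNA PP1 replicate 1 or 2, 341 or 360 without RNA PP2 replicate 1 or 2, 3704 without Ribo PP2 replicate 2 and 336 without Ribo PP2 replicate 3. MICAL2, an actin-oxidizing enzyme, passed this test with any one library left out: its Ribo level was 30.5 and 38.9 CPM in DE and 12.7, 18.1 and 18.1 CPM in PP2, while its RNA went from 1.899 and 1.79 CPM to 50.4, 66.9 and 37.9 CPM (log2 interaction -6.01 ± 0.47, adjusted p = 2.3e-05). SYTL5, a synaptotagmin-like vesicle protein, went from 10.3 and 7.61 CPM to 23.5, 36.1 and 36.4 CPM in Ribo and from 0.9496 and 0.465 CPM to 80.5, 95.05 and 174 CPM in RNA (log2 interaction -5.60 ± 0.58, adjusted p = 1.4e-04). The footprint fall of MICAL2 on its own was lost without any one library except PP2 replicate 2 (adjusted p between 0.0717 and 0.208 by edgeR's quasi-likelihood test), and the footprint rise of SYTL5 without DE replicate 2 (adjusted p = 0.0586). NKX6-1 had 0 RNA CPM in both DE libraries and 118 CPM in PP2, so that no efficiency fold is given for it.

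Per kilobase of counted gene length, mean footprint levels in PP2 were 2025 CPM per kb for SERPINA1, 1736 for DLK1, 1244 for SPINK1, 1084 for AFP and 654 for FN1. The counted feature is not given, so this length need not be the coding length. These values therefore do not rank the genes by ribosome density. In DE, CER1 stood at 1786 CPM per kb of counted length. The 4 genes SERPINA1, DLK1, FN1 and AFP together held 0.087% and 0.072% of protein-coding footprints in DE, 4.19% and 3.99% in the PP1 libraries and 7.04%, 3.57% and 7.76% in PP2.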

How the data were processed

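Total RNA (RNA) and ribosome-bound RNA (Ribo) were sequenced from HUES8 cells at 3 stages, with 2 DE, 2 PP1 and 3 PP2 libraries per assay. The authors deposited raw counts per gene symbol. Per the submitters' processing notes, the tools were cutadapt 1.18, Bowtie 1.2, STAR 2.7.1a and featureCounts 1.6.4 on hg38; the annotation release, strand setting and counted feature are not given in these sources, so that antisense and near-identical genes could share reads. No library column was identical to another, and Ribo totals ran from 4710335 to 24186949 counts, which limits low genes most in the shallow libraries. Reads without molecular identifiers are not independent molecules, so intervals and bounds cover counting error only.

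edgeR 4.0.16 (R 4.3.3) was run on all 7 Ribo libraries with its low-count filter, trimmed mean of M-values scaling, a quasi-likelihood test of PP2 against DE and Benjamini-Hochberg adjustment at 0.05; efficiency was the interaction over 14 libraries. The code was tested on simulated data. For genes with 1 to 3 counts over a stage the ratio of counts is given with its exact 95% interval, and for 0 counts the bound from 3 counts over the stage. Gene types, positions and start regions came from RefSeq (GRCh38.p14), where 37275 of 59050 symbols matched. Levels were set per kilobase of counted length, in place of the planned protein length, which was not used here.

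Of 878 listed genes 870 were found, 50 of them under an older symbol. Genes named are list members, the 12 protein-coding genes with the highest and the 12 with the lowest log2 value among calls without overlap of libraries whose larger stage mean reached 10 CPM, the 10 with the largest difference in CPM in each direction, and the 6 highest and 6 lowest in efficiency; some genes are not reported here. The members and lists were chosen with earlier results of these data known. Alternatives were other scalings, filters, tests (DESeq2 1.42.0, limma 3.58.1), thinning, the replicate number as a block and leaving out libraries.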

Additional observations from a re-analysis of the deposited data

How the results depend on the processing

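Of the 143 called genes named in the text, none changed sign in an alternative run that tested it. No call was lost for 117 of them with any one Ribo library left out, and for 112 under every alternative. In these 2 counts a gene that a run did not test stands as kept. With a mean of at least 50 counts, for example, 9 of the 12 primitive streak genes were tested. Of the named genes that did not pass, 8 changed sign in some setting without passing in it. Their log2 values ranged, with one library left out, from -0.61 to 7.18 for ALDH1A2 (0 counts in DE replicate 1), -0.44 to 0.0217 for GATA4, -0.56 to 0.32 for MNX1, -0.32 to 0.77 for ONECUT1, -0.51 to 0.497 for SCNN1B, -0.67 to 1.27 for SHH and -0.15 to 0.246 for SMAD3. Without a low-count filter ATF4 was 0.0404, GATA4 0.12, SCNN1B 0.19, SHH 0.21 and SMAD3 0.25. With protein-coding genes only MNX1 was -0.0313 and ONECUT1 -0.0188, with PP2 thinned -0.0583 and -0.17, and with the replicate block ONECUT1 was -0.32 and GATA4 0.0243. MNX1 was -0.19 with a mean of at least 50 counts; with limma voom MNX1 was -0.36, SHH 0.32 and SMAD3 0.0641; ATF4 was 0.0929 with PP2 replicates 1 and 3 left out. The 4153 calls (1914 protein-coding higher, 1592 lower) ranged from 1788 to 6837 with one Ribo library left out (831 to 3197 and 697 to 2435). They became 2477 (1217 higher) with a mean of at least 50 counts, 6901 (2959 and 2673) with limma voom, 1923 (786 and 779) when tested against a 2-fold change and 2410 (1185 and 868) with PP2 replicates 1 and 3 left out. With the replicate number as a block they became 1682 (817 and 641). The sources do not say whether replicate numbers pair the libraries. Differences between replicates 1 and 2 correlated at 0.049, -0.059 and -0.192 between stages. These values cannot decide the question, since PP2 replicates 1 and 2 differed in MT-RNR2 share (1.65% and 44.6%). Without a low-count filter 64.7% of protein-coding calls were higher, against 54.6%, and with protein-coding genes only 49.3% (1963 higher, 2022 lower). The median of the shared genes moved by 0.29 without a filter and by -0.28 with a mean of at least 50 counts, and by under 0.1 with the other scalings. The printed count ratios were 1.12 (AFP) to 8.47 (NODAL, OVCH2) times their lowest value with a library left out, with 0 counts at the bound. The 804 efficiency calls became 2135 without a filter, 2069 with DESeq2, 4139 with limma voom, 205 with DE and PP2 libraries alone, 64 with the replicate block, 191 with Ribo PP2 replicates 1 and 3 left out, and 52 to 3704 with one library left out. The cause of these changes was not tested, except that left-out libraries and the block leave fewer degrees of freedom. The DE Ribo libraries held 34.7% and 35.2% protein-coding counts, so that low genes in DE rest on few counts.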

Other observations

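Genes that pattern the gut tube along its length moved in both directions. Of 27 HOX genes 9 were tested, of which 4 rose and 1 fell, and 4 fell without PP2 replicate 2. Their median log2 was -0.76. The whole HOX list summed to 85.7 and 116 CPM in DE and to between 35.4 and 87.1 CPM in PP2, so that the list as a whole did not rise. HOXA2, a retinoid-responsive gene of the hindbrain, had 0 counts in DE and 3.79, 14.9 and 6.501 CPM in PP2 (at least 21.6-fold higher, or 10.7-fold with a library left out). HOXC4 went from 1.24 and 1.63 CPM to 13.3, 19.3 and 9.32 CPM (log2 3.27 ± 0.56, adjusted p = 0.002296). The fall was HOXB8, a gene with little RNA described above. Of 15 intestinal genes 8 were tested, of which 4 rose and 2 fell. CDH17, the liver-intestine cadherin, went from 0 counts to 23.99, 5.57 and 40.3 CPM (at least 94.4-fold higher, or 46.7-fold with a library left out), and VIL1, the microvillus protein villin, from 5.14 and 8.33 CPM to 121, 70.03 and 106 CPM (log2 3.87 ± 0.45, adjusted p = 2.6e-04). TFF3, a secreted trefoil peptide of goblet cells, went from 0 counts to 6.301, 3.495 and 2.67 CPM (at least 19.1-fold higher, or 9.43-fold with a library left out), with adjusted p = 0.108 in edgeR's quasi-likelihood test with PP2 replicates 1 and 3 both left out. No DE library reached a PP2 library in any of these 5 rising genes.

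Markers of other cell types that the cultures could hold were also seen. Of 9 tested endothelial and blood genes 4 rose and 2 fell, with 2 rising without DE replicate 1 or PP2 replicate 3. VWF, the clotting factor of endothelium, went from 42.9 and 89.1 CPM to 0.0254, 0.129 and 0 CPM (a count ratio of 2003 between the stages, with a 95% counting interval of 553 to 16572), with RNA means of 146 and 0.101 CPM. CDH5, the endothelial cadherin, went from 0 and 0.362 CPM to 12.5, 4.53 and 12.5 CPM (a count ratio of 64.2 between the stages, with a 95% counting interval of 17.7 to 531). Of 8 tested neural genes 2 rose and none fell, near the 27.6% called over all genes, with a median of 0.09. The whole neural list took 0.053% and 0.051% of protein-coding counts in DE and 0.038%, 0.048% and 0.028% in PP2. The 2 genes that rose were thus not typical of it. DCX, a microtubule protein of migrating neurons, went from 0.886 and 0 CPM to 34.7, 19.3 and 15.2 CPM (log2 5.66 ± 0.84, adjusted p = 0.00104), and SOX3, a factor of neural progenitors, from 3.19 and 4.17 CPM to 46.4, 24.7 and 20.7 CPM (log2 3.06 ± 0.54, adjusted p = 0.00281).

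Of 23 tested glycolysis and glucose transport genes 5 rose and 3 fell, near the 27.6% called over all genes, with 0 and 1 without DE replicate 1, 3 and 1 without DE replicate 2 and 2 and 1 without PP2 replicate 3. SLC2A1, the transporter GLUT1, went from 23.2 and 32.6 CPM to 214, 83.1 and 244 CPM (log2 2.69 ± 0.50, adjusted p = 0.00388; adjusted p = 0.0557 without DE replicate 1), against the fall of SLC2A3 given above. IGF2, a fetal growth factor whose reads could be shared with the INS-IGF2 readthrough gene, went from 0 and 0.543 CPM to 176, 394 and 203 CPM (a count ratio of 781 between the stages, with a 95% counting interval of 267 to 3789). TGFB2, a ligand counted among YAP targets, went from 0.886 and 0.362 CPM to 123, 64.3 and 118 CPM (log2 7.32 ± 0.58, adjusted p = 2.5e-05). Of the lists not named elsewhere, 4 of 33 cell cycle genes and 4 of 29 replication-dependent histones rose and none fell, with none rising without DE replicate 1 or 2 and 12 and 21 without PP2 replicate 2. Of 25 cholesterol genes 3 rose and 1 fell, with 0 without DE replicate 1 and 11 without PP2 replicate 2. Of 16 heat shock genes 4 rose and 1 fell, with 0 rising without either DE library and 12 without PP2 replicate 2. Of 15 YAP and TEAD genes 3 rose, and 1 without either DE library and 6 without PP2 replicate 2. Of 14 fetal genes 4 rose and 1 fell, and 3 fell without PP2 replicate 2. None of 10 structural non-coding RNAs passed, although 8 fell without PP2 replicate 2. For comparison with these lists, 13.1% of all tested genes were higher and 14.5% lower.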
